A study of Mus musculus with 5 samples.

Results

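Accessible chromatin was described at the loci of 9 mouse genes known from limb ectoderm and its apical ridge: the transcription factor genes Trp63, Grhl2, Sp6 and Sp8, the keratin genes Krt8 and Krt18, the adhesion genes Epcam and Cdh1, and the secreted factor gene Rspo2. The 5 deposited peak lists were merged wherever peaks shared at least 1 bp, and a merged region was taken when it lay in, or within 100 kb of, the gene body in mm10 (coordinates of RefSeq, GRCm38.p6). This gave 147 of the 86713 regions of the series. Krt8 and Krt18 lie side by side and share 24 of these regions, each of which was counted once.

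ATAC-seq, which reads out where a transposase can reach the DNA, was run on 50K cells from the anterior forelimb pair of single E11.5 mouse embryos (40 to 48 somites). The 3 mutant embryos had the genotype PrxCre/+;Smarcc1c/c and the 2 control embryos Prx+/+;Smarcc1c/c, so both groups carried the conditional Smarcc1 allele and the Cre was present in the mutants alone. BAF155, the product of Smarcc1, belongs to the BAF complex, which moves nucleosomes, and the study's title concerns a role of that complex in repression by GLI factors. The single region within 1 kb of an end of Smarcc1 (chr9:110130829-110132866) held a peak in every library, with folds of 9.26, 8.38 and 8.41 in mutants 1, 2 and 3 and of 10.9 and 10.2 in controls 1 and 2, and such a peak does not show whether the conditional exons were deleted.

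The limb bud is a core of mesenchyme wrapped in a thin ectoderm, whose thickened rim, the apical ectodermal ridge, keeps the limb growing by releasing FGFs. The Prx-Cre transgene is known to act in limb mesenchyme and not in the ectoderm. Trp63 encodes p63, without which the skin and the ridge do not form, Grhl2 encodes a grainyhead-like factor that activates genes of epithelial junctions, and Sp6 and Sp8 encode zinc finger factors needed for the ridge. Krt8 and Krt18 encode the keratin pair of simple epithelia, Epcam an epithelial adhesion molecule, Cdh1 E-cadherin, and Rspo2 an R-spondin that strengthens WNT signalling. Each library mixes mesenchyme, ectoderm, vessels and other cells, so a peak cannot be given to one cell type, and fewer open cells cannot be told apart from less accessibility per cell.

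Promoter sequences are shown for the 4 of the 9 genes that the RefSeq table (GRCm38.p6) holds, a pair whose gene-end region was missing from some mutants (Krt18 and Krt8) and a pair whose gene-end region was open in all libraries (Sp8 and Epcam). Sp6, Trp63, Cdh1, Grhl2 and Rspo2 are named without one. Each line gives the 250 bases before the most upstream start in that table, read 5′ to 3′ on the strand of the gene, and capitals mark the letters of a TATA box (TATAAA) or of a GC box of SP factors (GGGCGG) on either strand. The Krt18 stretch is chr15:102027966-102028215 (plus strand), the Krt8 stretch chr15:102004343-102004592 (minus strand), the Sp8 stretch chr12:118846079-118846328 (plus strand) and the Epcam stretch chr17:87635729-87635978 (plus strand).
Krt18: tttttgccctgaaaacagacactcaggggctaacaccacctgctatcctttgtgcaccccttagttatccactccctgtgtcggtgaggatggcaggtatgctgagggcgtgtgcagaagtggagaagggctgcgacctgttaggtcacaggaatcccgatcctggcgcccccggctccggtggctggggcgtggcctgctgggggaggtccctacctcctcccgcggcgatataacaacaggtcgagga
Krt8: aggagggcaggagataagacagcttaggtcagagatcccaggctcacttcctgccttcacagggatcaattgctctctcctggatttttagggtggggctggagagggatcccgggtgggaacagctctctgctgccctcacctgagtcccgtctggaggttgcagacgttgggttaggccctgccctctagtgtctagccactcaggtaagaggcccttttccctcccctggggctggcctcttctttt
Sp8: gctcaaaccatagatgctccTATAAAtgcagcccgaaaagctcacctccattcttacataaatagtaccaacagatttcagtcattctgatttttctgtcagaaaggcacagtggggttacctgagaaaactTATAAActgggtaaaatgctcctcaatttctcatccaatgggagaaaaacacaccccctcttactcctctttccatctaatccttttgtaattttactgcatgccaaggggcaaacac
Epcam: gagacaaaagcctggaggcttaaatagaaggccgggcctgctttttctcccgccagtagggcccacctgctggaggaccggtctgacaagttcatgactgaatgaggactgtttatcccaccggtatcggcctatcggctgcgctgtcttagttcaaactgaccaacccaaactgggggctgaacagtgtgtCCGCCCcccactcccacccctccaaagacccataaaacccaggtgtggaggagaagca
The 4 stretches held 3 matches in all, 2 TATA boxes at Sp8 and 1 GC box at Epcam. The grainyhead-like letters AACCNGTT and a p63 motif of paired CATG cores had no match in these windows. The same letters, on either strand and with no overlap between matches of different motifs here, occurred in 12.4% (TATA box), 33.0% (GC box), 1.80% (grainyhead-like) and 0.494% (p63) of the upstream stretches of 32619 RefSeq promoters. A match describes the letters and is not a measured binding site. GC content was 60.4% at Krt18, 58.0% at Krt8, 40.8% at Sp8 and 56.4% at Epcam. The table also holds Sp8 starts further downstream, whose stretches are not printed. These are chr12:118846983-118847232 (67.2% GC, 1 GC box) and chr12:118847309-118847558 (50% GC, no match). A peak touched the windows of these downstream starts in every library, but not the window of the Sp8 stretch shown.

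Fewer regions held a peak at the 9 loci in each mutant than in either control, but this order did not hold when the lists were made equally long. Peaks lay in 56, 85 and 42 regions in mutants 1, 2 and 3, against 99 and 93 in controls 1 and 2. The means were 61.0 ± 21.9 in mutants and 96.0 ± 4.24 in controls (SD, n = 3 and 2, exact two-sided permutation p = 0.2, the smallest value this design allows). The mutants differed more among themselves than the controls did, and mutant 2 lay close to the controls. With only the 27194 strongest peaks of each library, as many as the shortest list holds, the counts were 45, 57 and 42 in the mutants. They were 45 and 44 in the controls, a mean difference of 3.50 in the other direction (exact permutation p = 1, n = 3 and 2). Mutant 2 alone lay above both controls here. Equal length fixes the number of peaks per library, so a difference in peak numbers over the whole genome cannot show in these counts. In the lists as deposited, regions at the 9 loci made up 0.173%, 0.219% and 0.178% of the regions of mutants 1, 2 and 3. They made up 0.152% and 0.165% of those of controls 1 and 2, and no mutant share lay within the range of the controls. These shares include the 90 regions nearest to a neighbouring gene. For the 57 regions nearest to 1 of the 9 genes, the mutant mean differed from the control mean by -50.2%, beside -48% over all regions.

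**Figure D1:**
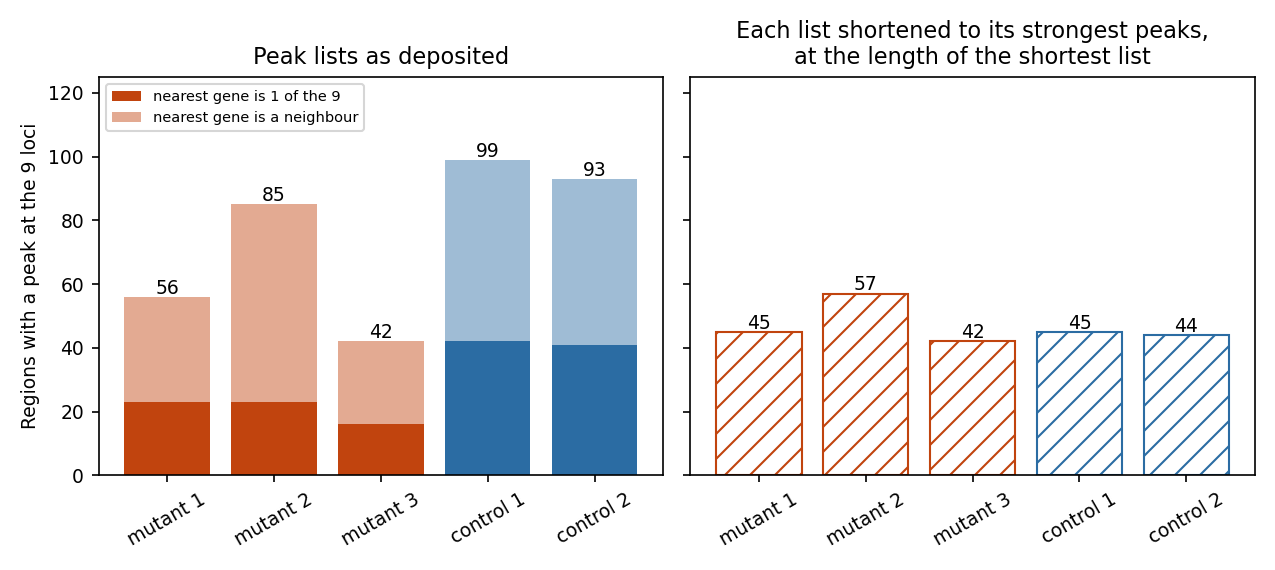
Regions with a peak at the 9 loci in each library, as a count, for the lists as deposited (left; dark parts are regions nearest to 1 of the 9 genes, light parts regions nearest to a neighbouring gene) and for lists shortened to equal length (right). The 3 mutants sit at 56, 85 and 42 and the 2 controls at 99 and 93 on the left, and mutants 1 and 3 sit beside the controls on the right.

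Background levels overlapped between the genotypes. Read numbers are unknown, and the background level behind the folds was 5.48, 5.09 and 4.95 fragments per position in mutants 1, 2 and 3 and 4.77 and 6.42 in controls 1 and 2. The lowest fold in a list was 2.47, 2.46 and 2.52 in the mutants and 2.43 and 2.29 in the controls. An absent peak therefore means a fold below about that level, not closed chromatin. Folds are the authors' own values, each relative to the background of its library and not scaled between libraries, so where the listed folds of the groups are said to overlap or not, this describes the lists and is no measure of a change in accessibility. The lists held 27194 to 42794 peaks in the mutants and 60333 to 68959 in the controls.

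Much of the chromatin counted here belongs to neighbouring genes. Of the 147 regions, 57 had 1 of the 9 genes as the nearest gene, by the distance of the summit to either gene end, and 90 were nearest to a neighbour. Regions nearest to the 9 genes held peaks at 23, 23 and 16 places in mutants 1, 2 and 3, against 42 and 41 in controls 1 and 2 (means 20.7 ± 4.04 and 41.5 ± 0.707, SD, n = 3 and 2, exact permutation p = 0.2). Relative to the control mean, the mutant mean differed by -50.2% here, by -36.5% over all regions of the 9 loci and by -48% over all regions of the genome. At equal list length these counts were 16, 19 and 16 in the mutants and 18 and 15 in the controls (exact permutation p = 0.8, n = 3 and 2), a comparison chosen after seeing the data. Regions nearest to neighbours held peaks at 33, 62 and 26 places in the mutants and at 57 and 52 in the controls (exact permutation p = 0.6, n = 3 and 2), and mutant 2 lay above both controls there. Of the 147 regions, 19 had a peak in mutant 2 alone, against 8.03% of all regions, and 18 of these 19 were nearest to a neighbour.

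**Figure D2:**
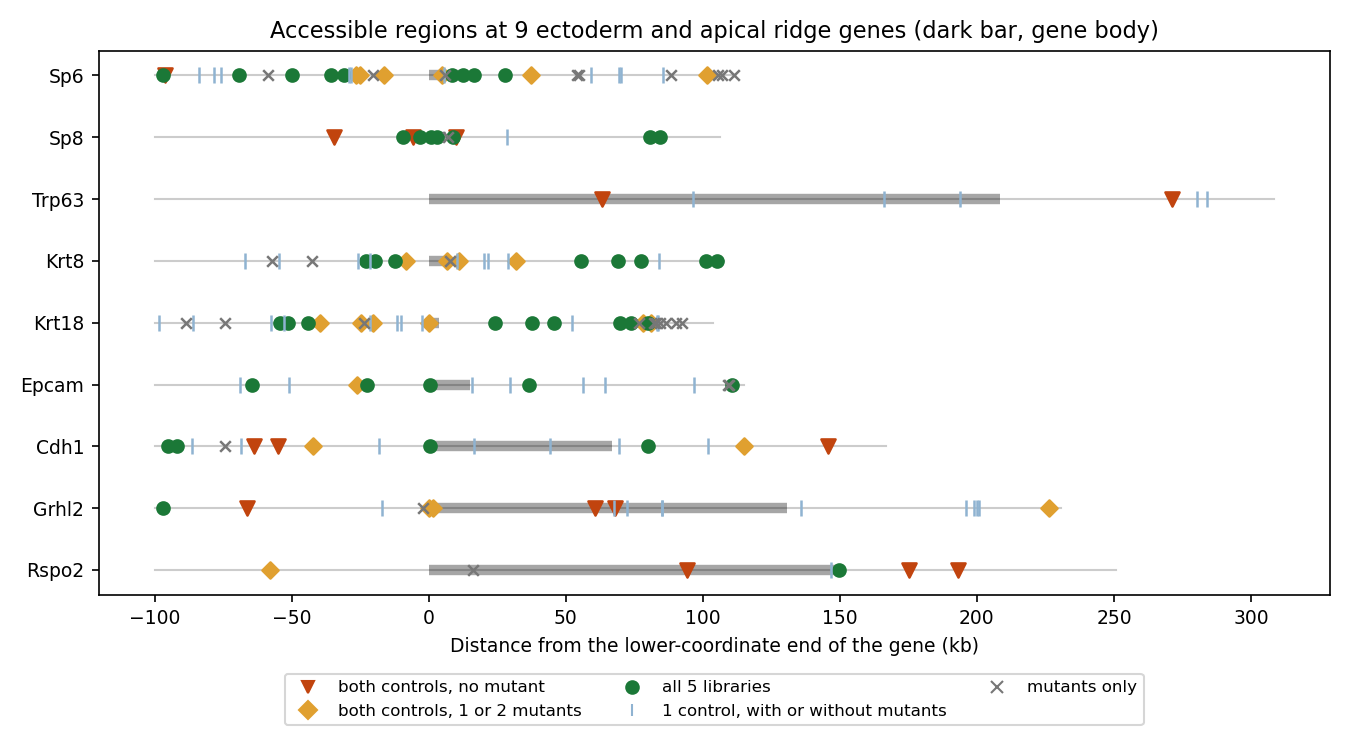
Regions at each of the 9 genes by distance in kb from the lower-coordinate end of the gene, with the gene body as a dark bar and symbols for the libraries that held a peak. Red triangles, regions of both controls that no mutant held, are found at Sp6, Sp8, Trp63, Cdh1, Grhl2 and Rspo2 and not at Krt8, Krt18 or Epcam.

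At the ends of the 9 genes, a peak within 1 kb was found for 8, 7 and 5 genes in mutants 1, 2 and 3 and for 8 genes in each control. Over all 21631 protein-coding genes the share with such a peak was 61.7%, 63.6% and 57.8% in the mutants and 65.8% and 64.9% in the controls. Sp6, Sp8, Epcam, Cdh1 and Rspo2 had one in every library. Trp63 had none in any library, and the measure covers the outer ends of a gene only, not starts inside its body. Krt18, Krt8 and Grhl2 lacked one in some mutants, and mutant 3 lacked all 3. Of the 24 gene-end regions that both controls held at these loci, neighbours included, 1 was absent from all mutants (4.17%), where 4.64% of the 13975 gene-end regions of both controls were. Present in all mutants were 17 of the 24 (70.8%), where 81.3% of the 13975 were. Among those nearest to the 9 genes, 5 of 9 (55.6%) were present in all mutants.

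**Figure D3:**
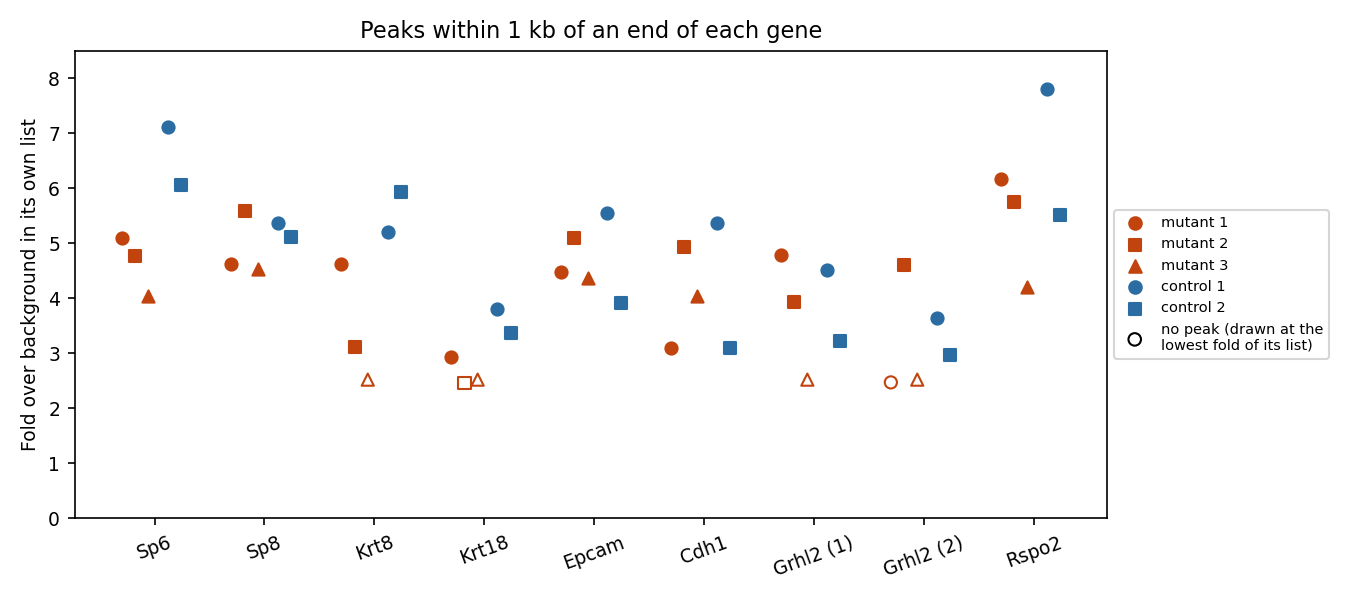
Fold over background, within its own list, of the regions within 1 kb of an end of each gene that both controls held (filled symbols), with open symbols at the lowest fold of a list where that library had no peak; the Grhl2 regions are numbered by coordinate. Since both controls hold every region drawn, open symbols can stand for mutants only; they appear at Krt8, Krt18 and both Grhl2 regions.

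The Trp63 locus (chr16:25683763-25892088) held few peaks. Its 7 regions held peaks at 1, 0 and 2 places in mutants 1, 2 and 3 and at 7 and 2 in controls 1 and 2. The 2 regions found in both controls were absent from all mutants: one in the gene body (chr16:25746879-25747358) had folds of 3.47 in control 1 and 4.04 in control 2, and one nearest to P3h2, a prolyl 3-hydroxylase gene (chr16:25954538-25955227), had 4.33 and 4.58. All 4 regions within the Trp63 body were free of peaks in every mutant, and 3 of them held a peak in control 1 alone. Without control 2 the count of absent regions at Trp63 was 5. Here and at the loci below, a count without 1 control takes in every region of the other control. Over all regions the share absent from all mutants was 30.4% with every library. It was 41% without control 1, 47.8% without control 2, 35.1% without mutant 1 and 36.4% without mutant 2.

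At Grhl2 (chr15:37232821-37363569), the region at the lower-coordinate end (chr15:37232081-37233495) had folds of 4.78 and 3.94 in mutants 1 and 2, no peak in mutant 3, and 4.51 and 3.23 in the controls. Next to it (chr15:37233755-37234658) mutant 2 had a fold of 4.60 and the other mutants no peak, against 3.64 and 2.96 in the controls. Another region, 1.99 kb outside the gene (chr15:37230523-37230833), held a peak in mutants 1 and 2 with folds of 3.39 and 3.45 and in neither control. Of the 7 regions of both controls at Grhl2, 3 were absent from all mutants, in the body at chr15:37293177-37293619 (control folds 3.64 and 3.37) and chr15:37300581-37301068 (3.29 and 3.37) and outside it at chr15:37166252-37166540 (2.95 and 2.69). The strongest in the controls, 96.6 kb outside the gene (chr15:37135098-37136269), was open in all, with folds of 4.63, 3.61 and 3.36 in the mutants and 6.76 and 5.52 in the controls, which did not overlap. Without mutant 2 the Grhl2 count of absent regions was 5, without control 1 it was 7 and without control 2 it was 9. Over all regions the share absent also rose in these settings, from 30.4% to 36.4%, 41% and 47.8%.

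At Sp8 (chr12:118846288-118852578), 7 of the 10 regions of both controls were open in all mutants and 3 in none. The strongest lay 1.81 kb beyond the higher-coordinate end (chr12:118854388-118855566), with folds of 9.57, 10.7 and 9.08 in mutants 1, 2 and 3 and of 12.1 and 9.03 in controls 1 and 2, so the groups overlapped. The gene-end region (chr12:118846441-118847774), which begins after the sequence shown above, had folds of 4.63, 5.58 and 4.54 in the mutants and 5.37 and 5.12 in the controls, also overlapping. A region 8.73 kb before the gene at chr12:118836182-118837553 (mutants 5.09, 6.90 and 5.05, controls 6.42 and 5.66) and another within the body of the transporter gene Abcb5 at chr12:118926671-118927399 (mutants 5.55, 5.42 and 6.39, controls 6.59 and 5.66) were open in all libraries. The 3 absent regions had control folds of 5.03 and 3.77 (chr12:118811323-118811995), 4.68 and 3.37 (chr12:118855884-118856567) and 2.95 and 2.83 (chr12:118840271-118840679). A peak in mutant 1 alone, with a fold of 3.39, lay within 1 kb of the other Sp8 end (chr12:118853257-118853514).

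At Sp6 (chr11:97013569-97024739), 9 of 16 regions of both controls were open in all mutants and 1 in none. The region 0.905 kb from the gene (chr11:97025644-97026525) had folds of 5.09, 4.76 and 4.04 in the mutants and 7.11 and 6.06 in the controls, which did not overlap. Within the gene body (chr11:97021320-97023001, chosen after its values were seen) the folds were 5.40, 8.05 and 3.87 in the mutants and 5.90 and 5.12 in the controls, and mutant 2 was the highest of the 5 libraries. The strongest regions of the locus were not those of Sp6. Among them were regions in the body of Sp2, another SP factor gene (chr11:96976684-96979019, mutants 10.8, 12.8 and 9.59, controls 12.5 and 19) and at an end of Cdk5rap3 (chr11:96915743-96917094, mutants 10, 11.7 and 9.08, controls 13.2 and 15.2). The absent region, beside Cdk5rap3 (chr11:96917281-96917604), had control folds of 3.81 and 2.83. The count of 1 absent region was 2 without mutant 1 or without mutant 2 and 6 without control 2. Mutant 2 held peaks at 28 regions of this locus, above the 22 and 20 of the controls, while mutants 1 and 3 held 17 and 9.

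Among the keratin genes, the Krt18 region at the gene start (chr15:102028036-102028807) had a fold of 2.93 in mutant 1, the lowest mutant fold at an end of the 9 genes, no peak in mutants 2 and 3, and 3.81 and 3.37 in controls 1 and 2. The 300-base RefSeq window around that start, whose upstream part is shown above, was touched by a peak in both controls and in no mutant. The Krt8 window was touched in mutants 1 and 2 and in no control, the Epcam window in mutant 1 and both controls, and the Sp8 window of the stretch shown in no library. Over all 32619 windows the share touched was 42.7%, 44.3% and 39.2% in mutants 1, 2 and 3 and 47.6% and 46.5% in controls 1 and 2. At Krt8, a region that begins inside the gene (chr15:102002905-102003956) had folds of 4.63 and 3.12 in mutants 1 and 2, no peak in mutant 3, and 5.2 and 5.93 in the controls. A narrow region 0.041 kb before the Krt8 start (chr15:102004383-102004683), within the Krt8 stretch shown above and just past it, had the other pattern. Mutants 1 and 2 held a peak there, with folds of 3.09 and 3.61 and summits 100 and 250 bases before the start, and mutant 3 and both controls held none. The main summits of the 4 libraries with a peak inside the gene lay 1125 and 1189 bases after the start in mutants 1 and 2 and 1147 and 1140 in controls 1 and 2. Peaks in exactly 2 mutants and neither control were found at 3 of the 147 regions (2 of them described here, at Krt8 and Grhl2, the other within Tns2 at chr15:102112293-102113069), where 0.625% of all regions had that pattern. These regions were singled out after their values were seen.

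In the lists as deposited, no region of both controls around Krt8 and Krt18 was absent from all mutants, and 9 of the 15 within 100 kb of Krt18 and 8 of the 12 within 100 kb of Krt8 held a peak in all of them. The strongest lay in the body of Krt78, a keratin gene (chr15:101983497-101985053, mutants 10, 11.2 and 7.74, controls 13.7 and 8.89), at an end of the translation factor gene Eif4b (chr15:102073156-102074909, mutants 10.2, 8.87 and 6.39, controls 10.2 and 10.2) and at an end of the tensin gene Tns2 (chr15:102099085-102104690, mutants 7.25, 8.38 and 4.54, controls 7.80 and 7.28). In the first and the last of these the groups overlapped. With 1 control left out, 6 (without control 1) or 4 (without control 2) regions of the remaining control were absent from all mutants at each keratin gene, and 1 region was absent without mutant 1 or without mutant 2. At a −log10 q of at least 5, or of at least 10, 2 regions were absent at each.

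Of the adhesion genes, Epcam (chr17:87635979-87651127) had 6 regions in both controls, 5 of them in all mutants and none absent from all, and 2, 4 and 1 absent without control 1, without control 2 and without mutant 2. Its gene-end region (chr17:87635745-87637223) gave folds of 4.47, 5.09 and 4.37 in mutants 1, 2 and 3 and of 5.55 and 3.91 in controls 1 and 2, so all mutants lay between the controls. A region 21.7 kb outside the gene (chr17:87612515-87614245) had 8.95, 8.54 and 9.59 in the mutants and 10.4 and 10.1 in the controls, which did not overlap. Another lay 64.0 kb away (chr17:87570807-87571932), with 4.94, 4.93 and 3.70 in the mutants and 6.42 and 4.72 in the controls. Control 1 alone held a peak at the other Epcam end (chr17:87651773-87651972, fold 2.77).

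Cdh1 (chr8:106603350-106670247) had its gene-end region (chr8:106603113-106604521) open in all libraries, with folds of 3.09, 4.93 and 4.04 in the mutants and 5.37 and 3.10 in the controls. No other region nearest to Cdh1 was found in both controls. Of the 9 regions of both controls within 100 kb, 4 were open in all mutants and 3 in none. Absent regions lay within Cdh3, the P-cadherin gene (chr8:106548204-106548756, control folds 4.85 and 4.18, and chr8:106539018-106539780, 4.16 and 3.50), and within Tango6 (chr8:106748612-106749340, 2.77 and 3.23). Kept regions at the ends of Tango6 (chr8:106682771-106684138, mutants 8.95, 10.3 and 7.23, controls 10.2 and 8.35) and of Cdh3 (chr8:106510287-106512834, mutants 4.63, 6.57 and 3.36, controls 6.24 and 6.06) overlapped between the groups. A distal one near Cdh3 (chr8:106507650-106508380) did not, at 4.17, 5.75 and 3.70 in the mutants and 8.67 and 6.47 in the controls. Without control 1 the count of absent regions at Cdh1 was 6, and without control 2 it was 7.

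At Rspo2 (chr15:43020788-43171594), 1 of 5 regions of both controls was open in all mutants, the gene-end region. It (chr15:43169550-43171125) gave folds of 6.17, 5.75 and 4.21 in mutants 1, 2 and 3 and of 7.80 and 5.52 in controls 1 and 2. Of the others, 3 were absent from all mutants: one in the gene body (chr15:43114758-43115217) with control folds of 4.51 and 4.58, and a pair outside it (chr15:43195659-43196165 with 3.81 and 2.96, chr15:43213524-43213891 with 3.12 and 3.64). Another, 57.6 kb outside (chr15:42962758-42963152, chosen after its values were seen), held a peak in mutant 3 with a fold of 4.54 and in no other mutant, against 5.37 and 3.23 in the controls. Mutant 3 alone held a peak within the gene body at chr15:43036860-43037117 (fold 3.36, chosen after its values were seen). Mutants 1 and 2 thus held 1 region each at this locus and mutant 3 held 3, against 5 and 6 in the controls.

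Of the 70 regions of both controls at the 9 loci, 15 (21.4%) were absent from all mutants, where 30.4% of the 45158 regions of both controls in the genome were. Another 36 (51.4%) were present in all mutants, where the share was 43.4% in the genome. Mutants 1, 2 and 3 held peaks at 68.6%, 75.7% and 52.9% of the 70 regions, which is 7.67, 14.3 and 4.70 percentage points above all regions (mean 8.89 ± 4.92, SD, n = 3). For the 31 regions nearest to the 9 genes the excess was 0.167 points and 9 of the 31 (29.0%) were absent from all mutants. Without the Sp6 locus the excess of the other 8 loci over all regions was 4.91 points. The excess was not shared by both classes of region. Within 1 kb of a gene end, mutants 1, 2 and 3 differed from all such regions by 0.447, -1.46 and -12.3 points (mean -4.43 ± 6.86, SD, n = 3). Farther from gene ends they differed by 9.21, 20.2 and 11 points (mean 13.5 ± 5.89, SD, n = 3). Leaving out a control widened the count of 15 to 32 of 94 without control 1 (34%, against 41.0% of all regions). Without control 2 it was 41 of 105 (39%, against 47.8%). No region at the 9 loci held a peak in all mutants and neither control, a pattern found at 0.0484% of all regions.

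Distal regions, those more than 1 kb from any gene end, made up 14 of the 15 absent regions. At the 9 loci 14 of 46 distal regions of both controls were absent from all mutants (30.4%, against 42.0% of all distal regions). Those nearest to the 9 genes, 9 of 22 (40.9%), stood near the genome-wide share, and those nearest to neighbours, 5 of 24 (20.8%), below it. Strength in the controls differed between absent and kept regions. This measure, the mean percentile of the fold within the control lists, had a median of 35.9 in the 15 absent regions (range 6.32 to 62.0) and of 79.0 in the 36 kept ones (range 47.0 to 98.8). Over all regions of both controls these medians were 41.5 and 83.8. Above the median strength of all regions of both controls (percentile 62.3), 0 of 19 distal regions at the 9 loci were absent from all mutants, against 19.5% of all such distal regions, and below it 14 of 27 were, against 54.8%.

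**Figure D4:**
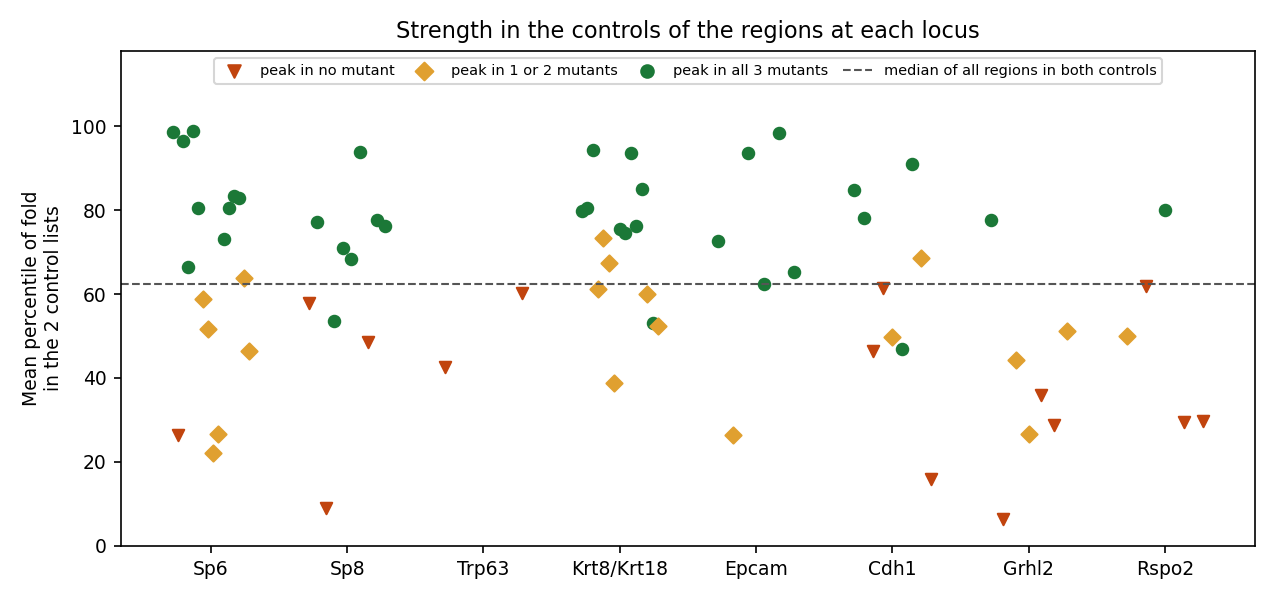
Mean percentile of the fold in the 2 control lists for the 70 regions of both controls, by locus, with symbols for how many mutants held a peak. All red triangles (no mutant) lie at or below a percentile of 62.0, under the dashed median of all regions of both controls at 62.3.

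Regions found in every library had lower ranks in the mutant lists, which are shorter. Over the 36 such regions at the 9 loci the mean fold percentile was 67.4, 74.6 and 53.4 in mutants 1, 2 and 3 and 81.4 and 76.5 in controls 1 and 2 (means 65.1 ± 10.8 and 78.9 ± 3.53, SD, n = 3 and 2, exact permutation p = 0.2). The difference of -13.8 was close to the -12.5 over all 19579 regions found in every library. All mutants ranked below both controls at 16 of the 36 regions, where 49.6% of all such regions did, and at 0 of the 36 did all mutants rank above both controls, against 0.403% of all such regions. A percentile also depends on the length of its list, which differed between the genotypes. At equal list length the difference at the 9 loci was 2.46 in the other direction (exact permutation p = 0.6, n = 3 and 2). The cause of the lower ranks was not tested.

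The same counts were made for 30 further ectoderm and ridge genes. These genes, among them Fgf8, Wnt7a and Krt14, had 294 regions in both controls within 100 kb, and 55 (18.7%) were absent from all mutants, 47 of 165 distal ones (28.5%), against 30.4% of all regions and 42.0% of all distal ones. They share 12 regions with the 9 loci. Adjacent keratin genes Krt15 and Krt19 had 4 of 5 regions absent each, counted per gene, so a region near both counts for each. The tight junction gene Cldn6 had 0 of 23 and the epithelial factor gene Ovol1 0 of 14. A peak near a gene end was found for 25, 27 and 19 of the 30 genes in mutants 1, 2 and 3 and for 27 in each control.

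For comparison, 29 of 149 regions at 14 mesenchyme genes were absent from all mutants (19.5%), 28 of 119 distal ones (23.5%), against 30.4% of all regions and 42.0% of all distal ones. Mesenchyme is where Prx-Cre is active. A peak near a gene end was found for 14, 14 and 12 of these 14 genes in mutants 1, 2 and 3 and for 14 in each control. Endothelial genes had one for 7, 7 and 7 of 12 in the mutants and 9 and 7 in the controls, and blood genes for 3 of 6 in every library. Tbx5, the forelimb identity factor gene, had 7 of 22 absent and Twist2 5 of 8, while the collagen gene Col1a2 had 0 of 9 and the growth factor receptor gene Pdgfra 0 of 6. Endothelial genes had 19 of 82 absent (23.2%) and 18 of 48 distal ones (37.5%), with the ETS factor gene Erg at 8 of 12, the receptor gene Tek at 3 of 3, Sox18 at 0 of 10 and Pecam1 at 0 of 7. Blood genes had 6 of 50 absent (12%) and 4 of 22 distal ones (18.2%), with Ptprc, the gene of the leukocyte antigen CD45, at 3 of 7, Spi1 at 1 of 10, Klf1 at 1 of 26 and Gata1 at 0 of 5. Distal regions of both controls within 100 kb held a peak in the mean mutant at 55.8% ± 12 for the 9 genes, at 55.6% ± 12.7 for the other ectoderm genes, at 54.6% ± 17.2 for mesenchyme genes, at 45.8% ± 7.51 for endothelial genes, at 66.7% ± 10.5 for blood genes and at 42.3% ± 8.52 over all distal regions (SD, n = 3). The mutants ranged from 43.5% to 67.4% for the 9 genes and from 35.3% to 68.1% for mesenchyme genes, and these ranges overlapped. For distal regions whose nearest gene is 1 of the 9, which the lists were not reduced to, the share was 48.5% ± 5.25.

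**Figure D5:**
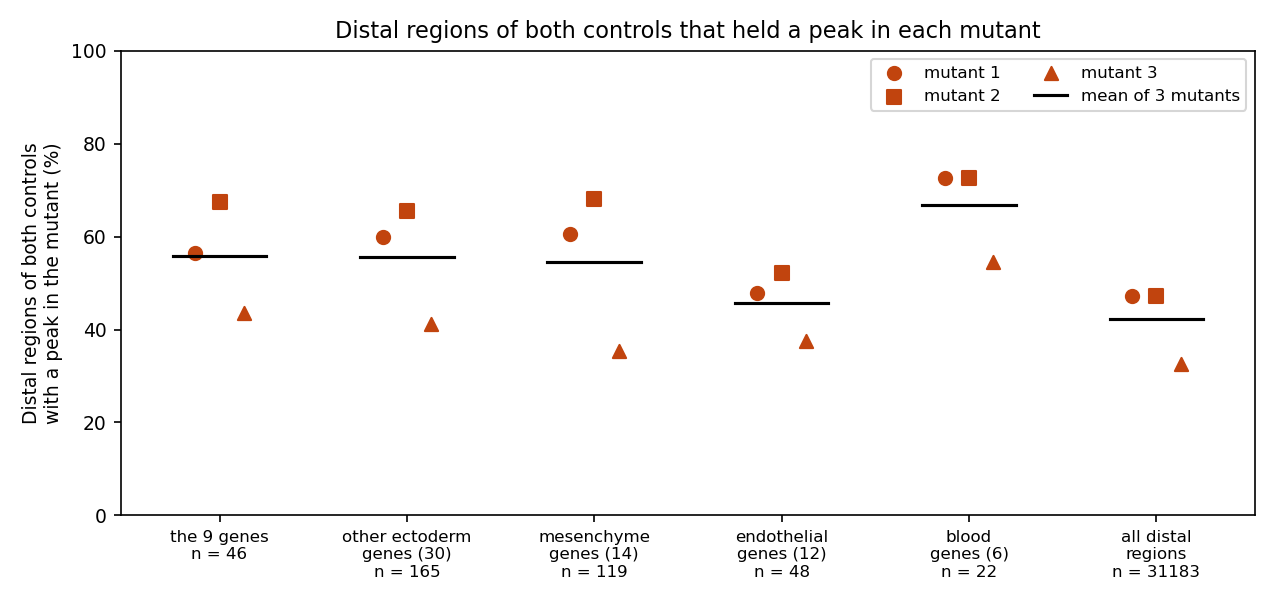
Percentage of the distal regions of both controls that held a peak in each mutant (symbols) with the mean of the 3 mutants (line), for 6 sets of regions whose size is given under each name. All sets but the last hold the regions within 100 kb of their genes, and mutants span 43.5% to 67.4% for the 9 genes and 35.3% to 68.1% for mesenchyme genes.

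The 100 kb limit fell between close values at several loci. For Sp6 the farthest region inside lay 99.9 kb away (a peak in 1 mutant and no control) and the nearest outside 102.2 kb (all 5 libraries). For Krt8 the farthest inside lay 94.7 kb away (all 5 libraries) and the nearest outside 100.6 kb (1 mutant, no control).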

How the data were processed

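ATAC-seq was measured in 5 libraries, 3 mutant and 2 control, each from 1 genotyped embryo and grouped by labelled genotype; numbers were given in sample order and pair nothing. The tools were bcl2fastq 2.20.0, Bowtie2 2.3.5 and MACS2, with mm10 as the build, per the submitters' processing notes. For MACS2, its version and options, any duplicate removal and any cut-site shift were not given in the sources used here. A missing shift would move borders by a few bases. For each library the authors deposited its own peak list, with positions in base pairs, a display score (not used), a fold enrichment ratio over the background of that library, and −log10 p-values and −log10 q-values. The deposited fold is not scaled between libraries, so folds serve to describe peaks and to rank them within a list. All folds (100%) were within 0.02 of a whole multiple of a library's smallest step, which gives its background level.

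Peaks on chromosomes 1 to 19 and X were merged at 1 bp of overlap. A region within 1 kb of a protein-coding RefSeq gene's start or stop was called gene-end. Strand was taken from the RefSeq promoter table. Group means were compared with an exact two-sided permutation test over libraries, for which 3 against 2 allow no p under 0.2; other counts are descriptions, beside the same share over all regions. Members and lists were chosen with earlier results of these data known. Named regions are every region at an end of the 9 genes and, at each locus, up to 3 absent from all mutants and up to 3 present in every library, strongest first, and any found in all mutants and neither control; others are marked as chosen after their values were seen, and a few regions that the rule names are not reported here. From the 4 lists (ectoderm, mesenchyme, endothelium, blood) the 2 genes each with most and fewest absent regions are named, ties broken by share or number of regions. Counting was tested on simulated data. Python 3.11.15, numpy 2.4.6 and pandas 2.3.3 were used.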

Additional observations from a re-analysis of the deposited data

How the results depend on the processing

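The direction changed with the length of the lists, and equal length fixes the number of peaks per library. At 27194 peaks in every library the mutant minus control difference at the 9 loci turned to 3.50 regions (exact permutation p = 1, n = 3 and 2) and that of the mean fold percentile to 2.46 (exact permutation p = 0.6, n = 3 and 2), and for regions nearest to the 9 genes, an alternative chosen after seeing the data, to 0.5 and 5.33 (exact permutation p = 0.8 and 0.4, n = 3 and 2). In both region counts at equal length mutant 2 alone lay above both controls, with 57 regions at the 9 loci against 45 and 44. The count of control regions absent from all mutants was 15 of 70 as reported (21.4%, against 30.4% of all regions). It was 2 of 36 at equal length (5.56%, against 13.4%) and 4 of 32 at a −log10 q of at least 10 (12.5%, against 23.9%). With flanks of 10 and 50 kb it was 6 of 24 (25%) and 9 of 47 (19.1%), against 30.4%. For regions nearest to the 9 genes it was 9 of 31 (29%, against 30.4%), and for these at equal length 0 of 12 (against 13.4%). Without 1 library it was 16 to 41 (22.9% to 39%, against 31.9% to 47.8% of all regions). The excess of kept regions over all regions, 8.89 points as reported, was 2.36 at a −log10 q of at least 10, 0.167 for regions nearest to the 9 genes, 14.7 for these at equal length, and 5.60 to 11 without 1 library. Regions in all mutants and neither control numbered 0 to 2 at the 9 loci without 1 library, beside 114 to 440 over all regions. The highest, without mutant 3, was 2 of 146 regions at the 9 loci, beside 440 over all regions. Shares of all regions were not computed for these settings, so these counts are not compared. The causes were not tested. Of 189 counts of absent regions for single genes under these settings, 57 differed by over 1.5 times. No paired analysis was possible because the labels give no replicate numbers. Without read numbers, counting error is not given.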

Other observations

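Peaks of mutant 2 alone were found at 19 of the 147 regions (12.9%), where 8.03% of all regions had that pattern. Of these, 8 lay at the Sp6 locus and 8 at the Krt18 locus, and their part in the counts of mutant 2 was not tested.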
